A study of Xenopus laevis with 6 samples.

Results

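The transcripts examined here were those of the DDX and DHX RNA helicases in the optic tectum of Xenopus laevis tadpoles, an allotetraploid frog whose genes often survive as a copy on the long (.L) and a copy on the short (.S) subgenome. Members were all annotated genes whose symbol, without the copy suffix, was ddx followed by a number and at most 1 letter, or dhx followed by a number. The rule gave 76 gene copies of 45099 annotated genes, 51 of them ddx and 25 dhx, belonging to 50 gene symbols. Of these symbols, 26 had both an L and an S copy, 19 an L copy only and 5 an S copy only. ddx51-like.L was not a member, since its symbol carries an addition.

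RNA came from the tectum, which receives input from the eye, of stage 46 tadpoles. The IN group comprised 3 libraries enriched in immature neurons, from animals exposed to visual stimulation. The NPC group comprised 3 libraries enriched in neural progenitors, from dark-exposed animals. Every IN library was light-exposed and every NPC library was kept dark, so population and visual condition cannot be told apart. The count columns carry letters, and which group each column belongs to was read from L as light (IN) and D as dark (NPC), which the labels do not spell out. The labels give no strain, transgene or enrichment method, and do not say whether libraries came from separate animals, so p-values measure the spread between these libraries, which may be technical. In such bulk samples, fewer cells of a type and less RNA per cell cannot be told apart.

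RNA helicases of these families use ATP to unwind short RNA duplexes or to strip proteins from RNA. The DDX proteins are named for a DEAD-box motif in their ATPase core, and most act locally on short helices. The DHX proteins carry a DEAH or related motif and tend to move along RNA. Members work in nearly every step of an RNA's life, from transcription, splicing, export and translation to decay and the assembly of ribosomes, so many of them are expressed in all cells. ddx26b carries the family name although its human counterpart, INTS6L, is a relative of a subunit of the Integrator complex.

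Reads counted over whole mRNAs numbered 9388103, 9747548 and 9914191 in IN libraries 1, 2 and 3, and 8422751, 9655246 and 8480161 in NPC libraries 1, 2 and 3. The helicases took 33795, 34332 and 52869 of these reads in IN, against 30033, 27199 and 41237 in NPC. Their share was 0.415% ± 0.102 in IN and 0.375% ± 0.104 in NPC (SD, n = 3 each). Reads were found in all 6 libraries for 54 of the 76 copies, and every copy had at least 1 read somewhere. Markers of the labelled populations stood on average opposite to the labels, with overlap. Neuron markers summed to 5543 ± 1256 CPM (counts scaled to library size with TMM factors) in IN and 7283 ± 2105 CPM in NPC, and 10 of 16 copies were below 0 in log2 fold change, IN minus NPC. Progenitor and radial glia markers summed to 2611 ± 1158 CPM in IN and 2214 ± 1009 CPM in NPC, and 10 of 14 copies were above 0. None of these copies passed edgeR's test.

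Levels between genes were compared as TPM, reads per kb of annotated exonic length scaled to 1 fixed total over all genes of a library. Helicase transcripts were concentrated in few copies: the 10 highest made up 58.6% of the summed helicase level of 2620 TPM. The mean over the 6 libraries was at least 10 TPM in 49 copies and under 1 TPM in 6.

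The most abundant helicase was ddx5, a transcription coactivator that also assists the Drosha complex in microRNA processing. Its copy ddx5.L (chromosome 9_10L, 43976410 to 43984213, plus strand, 13 exons) was at 241, 369 and 340 TPM in IN libraries 1, 2 and 3, and at 368, 212 and 389 TPM in NPC libraries 1, 2 and 3. ddx5.S (9_10S, 40075471 to 40083847, plus strand, 13 exons) was at 431, 348 and 367 TPM in IN, against 363, 139 and 244 TPM in NPC. Over whole mRNAs the copies thus stood at nearly the same mean level, 320 TPM for L and 315 TPM for S. Counted per kb of coding sequence with STAR, the L copy made up 55.0% to 69.9% of the pair over the libraries. Its paralog ddx17.L (4L, 113027284 to 113051558, plus strand), with the same known roles, ranked sixth at 115 TPM.

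By single copy, ddx21, a nucleolar helicase of ribosomal RNA synthesis and processing, came next. ddx21.S (7S, 22342438 to 22357924, plus strand, 17 exons) was at 188, 129 and 217 TPM in IN and at 149, 63.3 and 409 TPM in NPC, so both its lowest and its highest value fell in NPC. ddx39a, an mRNA export helicase, followed with its S copy at a mean of 130 TPM and its L copy at 121 TPM. With copies summed, ddx39a (251 TPM) stood above ddx21 (226 TPM). The remaining copies of the highest 10 included dhx9.L (91.0 TPM), a helicase of transcription and of double-stranded RNA, and ddx3x.S (86.3 TPM), which helps translate messages with structured leaders. The others were ddx39b.L (85.3 TPM), an export helicase of the TREX complex, and ddx46.L (78.8 TPM), which acts on the U2 snRNP of the spliceosome.

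**Figure D1:**
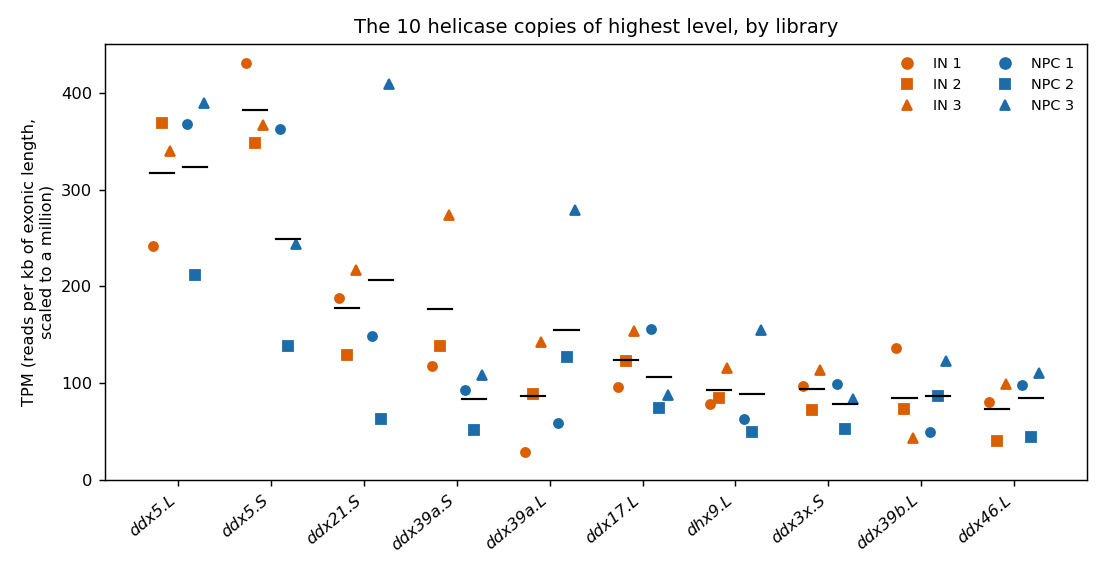
TPM of the 10 helicase copies of highest mean level (y axis, linear) in each library, with IN libraries (orange) left of NPC libraries (blue). Marker shape gives the library number and black lines give group means. The spread within a group is wide for ddx21.S, from 63.3 to 409 TPM in NPC. In TPM the groups overlap for each copy shown except ddx39a.S, at 118 to 274 TPM in IN and 51.2 to 109 TPM in NPC. In CPM after TMM scaling ddx39a.S overlaps too, with 94.1 CPM in IN library 1 and 104 CPM in NPC library 3.

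Summed over all members, helicase reads amounted to 3338, 3483 and 5444 CPM in IN libraries 1, 2 and 3, and to 3181, 3400 and 5217 CPM in NPC libraries 1, 2 and 3. The ratio of the means, IN over NPC, was 1.04 and the groups overlapped. The library numbered 3 was the highest in both groups. Library 3 also had the largest share of its reads in coding sequence over all genes, 60.9% in IN and 61.0% in NPC, against 45.9% and 54.0% in IN libraries 1 and 2 and 45.1% and 55.1% in NPC libraries 1 and 2. Counted over coding sequence alone, the helicases also took their largest share in library 3. Their share of coding reads was 0.414%, 0.380% and 0.624% in IN libraries 1, 2 and 3. In NPC libraries 1, 2 and 3 it was 0.434%, 0.391% and 0.543%. The part of such library differences in the helicase sums was not tested.

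No helicase copy passed the test between IN and NPC. After a filter on low counts, 66 copies were tested, and 0 had an adjusted p under 0.05 (edgeR's quasi-likelihood test, Benjamini-Hochberg adjustment over all 19158 genes tested, smallest adjusted p of a helicase 1.00). Over all genes 0% were called. DESeq2 called 0 helicases (smallest adjusted p 0.0573) and 88 of all genes (0.459%), and limma-voom called 0 of both. Log2 fold changes, IN minus NPC, were above 0 in 33 copies and below 0 in 33, beside 49.0% above 0 over all genes. Their median was -0.0058, beside -0.027 over all genes. At an unadjusted p under 0.05 there were 3 copies, 4.55% of those tested, beside 3.43% over all genes. IN was higher in 1 of them, beside 1.51% over all genes, and lower in 2, beside 1.93%. In the tested copies the groups did not overlap in CPM for 6, with IN higher in 3 and lower in 3, which is 9.09% beside 8.76% over all genes (4.70% with IN higher and 4.06% with IN lower). These shares are near the background. The precision was limited, since the 95% interval of the median helicase copy reached 2.61 log2 units to each side.

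**Figure D2:**
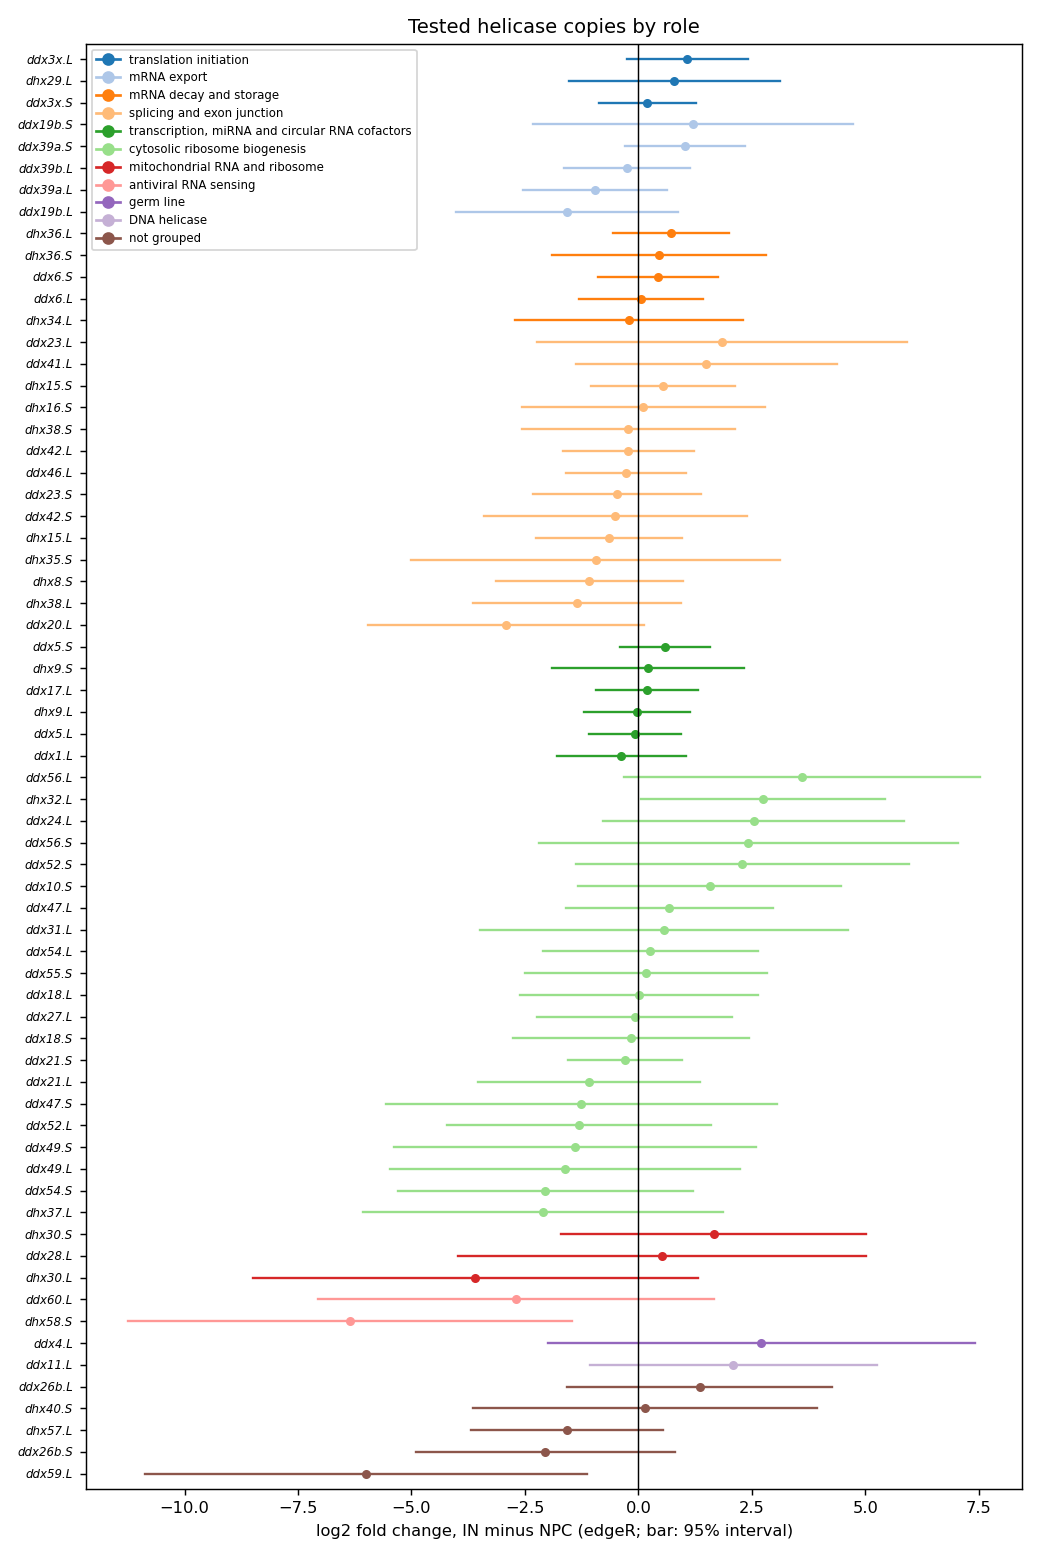
Log2 fold change, IN minus NPC (x axis), of the 66 tested helicase copies with the 95% interval from edgeR, grouped by role in colour. The intervals of all but dhx58.S, ddx59.L and dhx32.L include 0, and none of the copies passed after adjustment.

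Of these 3 copies, ddx59.L (4L, 103309212 to 103316241, minus strand, 7 exons) had the narrowest spread in NPC. DDX59 is known from human orofaciodigital syndrome. It had 4, 1 and 0 reads in IN, against 110, 96 and 87 reads in NPC, so all NPC libraries lay far above all IN libraries. In CPM these were 0.165 ± 0.205 in IN and 11.6 ± 0.504 in NPC (SD, n = 3 each). IN minus NPC came to -6.01 in log2 (SE 2.34, unadjusted p 0.0181, adjusted p 1.00, edgeR; exact permutation p 0.1, 2-sided, the smallest that 3 against 3 can give). Over coding sequence the same pattern held, with 3, 0 and 0 reads in IN and 91, 96 and 57 in NPC. DESeq2's adjusted p was 0.0773, and the annotation gave no S copy. Without IN library 2 or IN library 3 its unadjusted p exceeded 0.05.

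dhx58 encodes LGP2, a sensor related to RIG-I that binds viral double-stranded RNA. dhx58.S (9_10S, 578560 to 588751, plus strand, 13 exons) had 0, 0 and 6 reads in IN, against 215, 15 and 227 reads in NPC. The groups did not overlap, although NPC library 2 stood far below the other NPC libraries. IN minus NPC came to -6.35 in log2 (SE 2.35, unadjusted p 0.0135, adjusted p 1.00, edgeR). Its other copy, dhx58.L (9_10L, 680958 to 691024, plus strand), had 102, 1 and 2 reads in IN, against 24, 1 and 4 in NPC, and did not pass the filter. Most reads of the L copy thus came from IN library 1, and with both copies summed the log2 fold change was -2.34 (SE 1.84, unadjusted p 0.22, edgeR).

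dhx32.L (7L, 19764106 to 19811722, plus strand, 11 exons) had 239, 60 and 1068 reads in IN, against 69, 40 and 66 reads in NPC. The groups overlapped, since IN library 2 lay among the NPC libraries. It was at 46.6 ± 55.6 CPM in IN and 6.89 ± 1.71 CPM in NPC (SD, n = 3 each), with a log2 fold change of 2.75 (SE 1.29, unadjusted p 0.045, adjusted p 1.00, edgeR). IN library 3 alone held 69.3% of its reads. Its 365-base overlap with bccip.L on the opposite strand and its low coding share, 22.3% of mRNA reads, stand beside this value. Over coding sequence it had 17, 52 and 139 reads in IN, against 46, 39 and 51 in NPC. Its log2 fold change then came to 0.27 with STAR and 0.36 with TopHat2, and over whole mRNAs without IN library 3 it was 1.11.

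**Figure D3:**
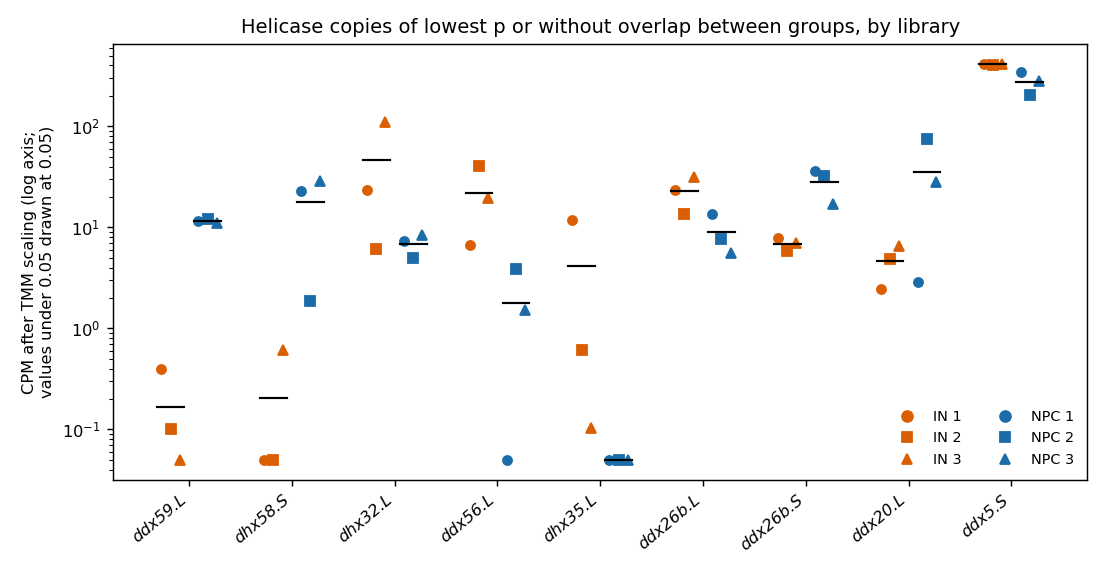
CPM after TMM scaling (y axis, log scale) of 9 helicase copies of low p or without overlap between groups, IN libraries (orange) left of NPC libraries (blue), with group means as black lines. Values under 0.05 CPM are drawn at 0.05. ddx59.L stands at 11.6 ± 0.504 CPM in NPC with all IN libraries under 0.5 CPM, while dhx32.L and ddx20.L overlap between groups.

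Helicases of translation initiation summed to 443 ± 113 CPM in IN and 308 ± 56.6 CPM in NPC (SD, n = 3 each). The sums overlapped, at 326 to 551 CPM in IN and 255 to 368 CPM in NPC. All 3 tested copies of the group, ddx3x.L, ddx3x.S and dhx29.L, had a fold change above 0, none passing. Over all genes 49.0% were above 0. ddx3x.L (2L, 76909052 to 76928169, plus strand) had 2783, 932 and 1362 reads in IN, against 1134, 494 and 472 in NPC. In CPM, IN library 2 lay below NPC library 1 (log2 fold change 1.08, SE 0.64, unadjusted p 0.108, adjusted p 1.00, edgeR). Over coding sequence with STAR, ddx3x.L had 1105, 460 and 639 reads in IN, against 294, 103 and 188 in NPC. These reads did not overlap between groups, and overlap in scaled coding counts was not calculated. ddx3x.S (2S, 46092737 to 46109627, minus strand) was close to even, at 237 ± 53.1 CPM in IN and 207 ± 24.6 CPM in NPC. dhx29.L, which helps the small ribosomal subunit scan structured leaders, was at 35.5 ± 22.1 CPM in IN and 20.5 ± 8.11 CPM in NPC. dhx33.L had at most 13 reads in any library.

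Export helicases summed to 375 ± 107 CPM in IN and 413 ± 240 CPM in NPC. Both copies of ddx39a were abundant and their fold changes differed in sign. ddx39a.S (3S, 18879969 to 18896716, minus strand) had 953, 1322 and 2475 reads in IN, against 681, 496 and 820 in NPC (log2 fold change 1.02, SE 0.63, unadjusted p 0.122, edgeR). In CPM its groups overlapped, with IN library 1 below NPC library 3. ddx39a.L (3L, 127725919 to 127738942, minus strand) had 206, 753 and 1148 reads in IN, against 390, 1094 and 1880 in NPC (log2 fold change -0.95, SE 0.76, unadjusted p 0.224, edgeR). Within each group, both copies had their highest count in library 3. With STAR, ddx39a.L had more coding than whole-mRNA reads in each library, 236, 881 and 1292 in IN and 417, 1213 and 1956 in NPC. Its span overlaps adgre5.L on the opposite strand over 636 bases, and the part of this overlap in its counts was not tested. Summed over copies, ddx39a was at 233 ± 131 CPM in IN and 218 ± 115 CPM in NPC, a log2 fold change of 0.10 (SE 0.55). ddx39b.L (8L, 52358187 to 52376719, minus strand) was at 98.1 ± 45.8 CPM in IN and 117 ± 56.7 CPM in NPC. ddx19b, which releases mRNA at the nuclear pore, had 3, 200 and 484 reads of its L copy in IN, against 225, 348 and 1122 in NPC, and 352, 73 and 194 reads of its S copy in IN, against 3, 2 and 209 in NPC.

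Helicases of mRNA decay and storage summed to 550 ± 135 CPM in IN and 427 ± 97.8 CPM in NPC, with 4 of 5 copies above 0 and none passing. dhx36, which unwinds G-quadruplexes, had 1834, 1679 and 1012 reads of its L copy (5L, 114176497 to 114221817, plus strand) in IN, against 552, 836 and 885 in NPC. In reads the groups did not overlap, and in CPM they did (log2 fold change 0.73, SE 0.61, unadjusted p 0.248, edgeR). dhx36.S (5S, 97823150 to 97863596, plus strand) had 411, 167 and 343 reads in IN, against 83, 267 and 204 in NPC. With its copies summed, dhx36 only just failed to overlap between groups, at 183 ± 41.3 CPM in IN and 114 ± 40.7 CPM in NPC. The log2 fold change of the sum was 0.69 (SE 0.56, unadjusted p 0.23, edgeR). Over coding sequence dhx36.L had 574, 1112 and 738 reads in IN, against 312, 806 and 877 in NPC, so the groups overlapped. ddx6, a repressor of translation and decapping activator found in P-bodies, was at 345 ± 172 CPM in IN and 287 ± 132 CPM in NPC with its copies summed.

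Splicing helicases summed to 620 ± 368 CPM in IN and 766 ± 191 CPM in NPC, with 10 of 14 tested copies below 0 and none passing. ddx20.L (2L, 73544017 to 73555824, minus strand), which encodes gemin3 of the SMN complex that loads Sm proteins onto snRNAs, had the lowest p of the group. It had 25, 48 and 64 reads in IN, against 27, 599 and 221 in NPC, so NPC library 1 lay among the IN libraries. In log2, IN minus NPC was -2.92 (SE 1.46, unadjusted p 0.0594, adjusted p 1.00, edgeR). ddx46.L (3L, 16003997 to 16037163, plus strand) was at 103 ± 42.3 CPM in IN and 125 ± 41.2 CPM in NPC. dhx35.L (9_10L, 31550757 to 31594701, plus strand), a spliceosomal helicase, had 120, 6 and 1 reads in IN and 0, 0 and 0 in NPC, did not pass the filter, and had 0 coding reads in each library. Its other copy dhx35.S (9_10S, 29065977 to 29094430, plus strand) had 14, 58 and 9 reads in IN, against 100, 29 and 12 in NPC.

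The transcription and microRNA cofactors were the most abundant group, at 1289 ± 245 CPM in IN and 1170 ± 246 CPM in NPC. Of their 6 tested copies, 3 were above 0 and 3 below. ddx5.S had 4207, 4010 and 4005 reads in IN, against 3227, 1625 and 2230 in NPC. In CPM its IN libraries were nearly alike and all lay above the NPC libraries, at 412 ± 4.39 CPM in IN and 276 ± 69.6 CPM in NPC (log2 fold change 0.58, SE 0.48, unadjusted p 0.239, adjusted p 1.00, edgeR; exact permutation p 0.1, 2-sided). Over coding sequence ddx5.S had 1088, 1315 and 2377 reads in IN against 1482, 956 and 1026 in NPC, so the IN libraries spread widely and the groups overlapped. ddx5.L was even, at 335 ± 99.2 CPM in IN and 354 ± 69.4 CPM in NPC. ddx17.L was at 203 ± 60.4 CPM in IN and 177 ± 36.3 CPM in NPC. ddx1.L, of the tRNA ligase complex, was at 83.2 ± 51.0 CPM in IN and 108 ± 30.6 CPM in NPC.

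Helicases of cytosolic ribosome biogenesis summed to 655 ± 317 CPM in IN and 646 ± 463 CPM in NPC, with 11 of 21 tested copies above 0 and 10 below. The nucleolar ddx56.L (3L, 119074652 to 119092672, plus strand) had 67, 395 and 188 reads in IN, against 0, 31 and 12 in NPC, without overlap (log2 fold change 3.61, SE 1.88, unadjusted p 0.0692, adjusted p 1.00, edgeR). ddx56.S (3S, 25735861 to 25751803, minus strand) had 7, 82 and 76 reads in IN, against 28, 1 and 0 in NPC. Summed over copies ddx56 did not overlap, at 27.6 ± 20.5 CPM in IN and 2.83 ± 1.25 CPM in NPC, with a log2 fold change of 3.29 (SE 1.56, unadjusted p 0.0474, adjusted p 1.00, edgeR).

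Over coding sequence, however, ddx56.L had only 4, 12 and 151 reads in IN, against 0, 17 and 10 in NPC, and these overlapped. ddx24.L (8L, 65704037 to 65718185, minus strand), another nucleolar helicase, had 11, 211 and 866 reads in IN, against 28, 2 and 126 in NPC, so the groups overlapped (log2 fold change 2.54, SE 1.59, unadjusted p 0.126, edgeR). ddx49, with its copies summed, had 92, 63 and 104 reads in IN, against 221, 140 and 259 in NPC, without overlap. The log2 fold change of the sum was -1.48 (SE 1.37, unadjusted p 0.292, edgeR). Each ddx49 copy alone overlapped between groups. For summed copies, the share without overlap over all genes was not calculated. ddx21.S was at 157 to 255 CPM in IN and 97.0 to 496 CPM in NPC, where NPC library 3 held 32.5% of all its reads. Its log2 fold change was -0.29 with all libraries and 0.72 without NPC library 3.

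**Figure D4:**
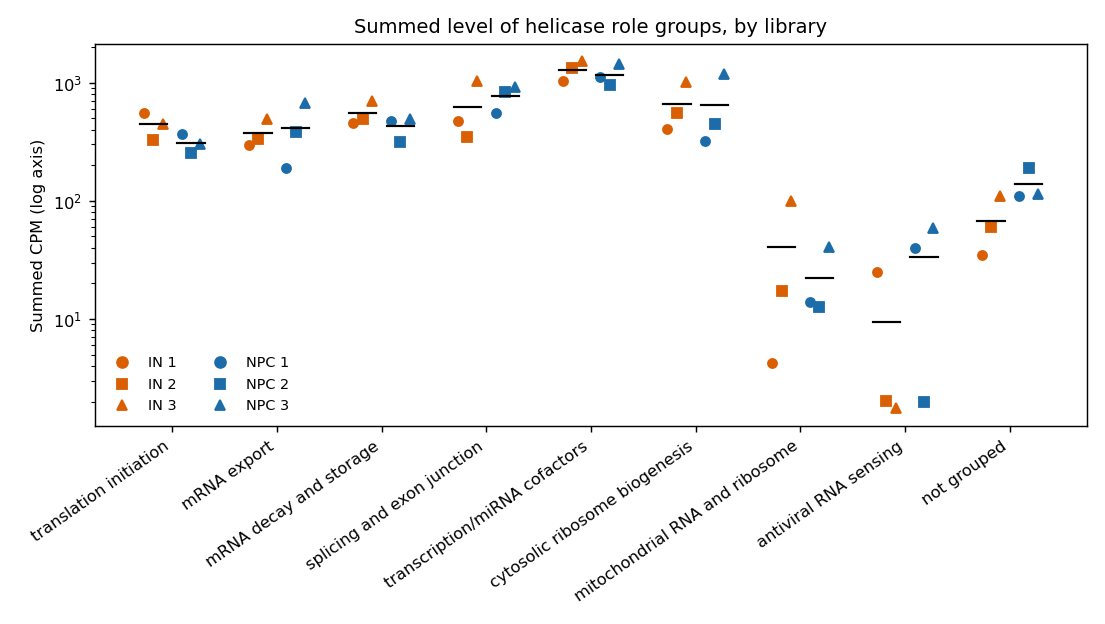
Summed CPM of the helicase copies of each role group (y axis, log scale), IN libraries (orange) left of NPC libraries (blue), with group means as black lines. Germ line copies and the single DNA helicase are not drawn. The translation group stands at 443 ± 113 CPM in IN and 308 ± 56.6 CPM in NPC. It overlaps between groups, with 326 CPM in the lowest IN library and 368 CPM in the highest NPC library. The ungrouped copies stand at 68.0 ± 38.0 CPM in IN and 138 ± 44.8 CPM in NPC. They just fail to overlap, with 109 CPM in the highest IN library and 111 CPM in the lowest NPC library.

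dhx30, which works in mitochondrial RNA granules, had 0, 17 and 1 reads of its L copy (6L, 3386111 to 3395615, plus strand) in IN, against 114, 1 and 82 in NPC. Its S copy (6S, 2940546 to 2955150, plus strand) had 35, 37 and 918 reads in IN, against 18, 2 and 238 in NPC. The log2 fold changes were -3.60 (SE 2.35) for L and 1.66 (SE 1.61) for S, neither passing. Without IN library 3 the S copy turned to -1.57. The antiviral group summed to 9.52 ± 13.2 CPM in IN and 33.5 ± 29.0 CPM in NPC, with overlap. ddx60, related to RIG-I signalling, had 31, 19 and 7 reads of its L copy in IN, against 71, 0 and 235 in NPC. ddx58.L, annotated over only 336 exonic bases, had 71 reads in IN library 1 and 0 in all others.

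Germ line helicases were scarce. ddx4, known as vasa, had 46, 0 and 97 reads of its L copy (1L, 195288169 to 195341394, minus strand) in IN, against 17, 2 and 1 in NPC. Its S copy (Scaffold33, 110670 to 134110, plus strand) had 147, 0 and 0 reads in IN, against 6, 0 and 5 in NPC, with at most 2 coding reads in any library. ddx25.L and ddx43.L, also of the germ line, had at most 32 reads in any library. The germ cell list, 9 copies of 8 symbols, includes ddx4.L, ddx4.S and ddx25.L themselves. Its sum ran from 1.12 to 22.2 CPM in IN and from 4.12 to 95.8 CPM in NPC. In IN library 1, where it was 22.2 CPM, the germ line helicases alone stood at 20.5 CPM. In NPC library 3, where it was 95.8 CPM, sycp3.L had 748 reads. nanos1.L had 0 reads throughout. The part of germ cells in the ddx4 reads was not tested. ddx11.L (3L, 5534115 to 5595221, plus strand), a DNA helicase of sister chromatid cohesion, had 411, 355 and 18 reads in IN, against 30, 73 and 48 in NPC. IN library 3 was thus the lowest of all 6, and over coding sequence IN library 2 and NPC libraries 1 and 2 had 0 reads.

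Of the 5 copies outside the role groups, dhx57.L (5L, 40433363 to 40470725, minus strand) had 33, 124 and 619 reads in IN, against 326, 1086 and 520 in NPC (log2 fold change -1.57, SE 1.02, unadjusted p 0.138, edgeR). ddx26b had opposite signs in its copies. Its L copy (8L, 47531071 to 47561756, plus strand) had 237, 135 and 308 reads in IN, against 129, 62 and 44 in NPC, and its S copy (8S, 75063978 to 75104562, plus strand) had 79, 57 and 68 reads in IN, against 342, 256 and 134 in NPC. In CPM over whole mRNAs neither copy overlapped between groups. Over coding sequence both did, with 8, 8 and 72 reads of the L copy in IN against 52, 17 and 29 in NPC, and 7, 23 and 12 reads of the S copy in IN against 79, 170 and 16 in NPC. Summed over whole mRNAs, they overlapped, at 29.8 ± 9.70 CPM in IN and 37.4 ± 13.8 CPM in NPC. ddx26b was singled out after its values were seen.

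The balance of L and S copies was examined in the 22 helicase pairs whose copies together averaged at least 10 CPM. It was measured as the log2 ratio of L to S reads per kb of exonic length within each library, so library scaling cancels. The L copy stood above S in 5 pairs and below it in 1 at an adjusted p under 0.05 (limma over 6 libraries, Benjamini-Hochberg adjustment over 6575 pairs). That is 27.3% of the helicase pairs, beside 18.4% over all pairs, of which 12.1% were L above S and 6.34% S above L. In a check of this fit on simulated counts with the spread of these libraries, false calls were more frequent than the adjusted threshold allows, so single calls are uncertain. The ratio was above 0 in 14 of the 22 pairs, beside 59.0% over all pairs. The median log2 ratio was 0.46 over the helicase pairs and 0.36 over all pairs.

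The L copy of dhx9 and of dhx36 was the higher one in each of the 6 libraries. For dhx9 the L copy (4L, 90557572 to 90597030, minus strand, 27 exons) made up 86.1%, 88.1% and 83.5% of the level per length in IN, and 90.5%, 83.8% and 88.2% in NPC. Its S copy (4S, 73607015 to 73633313, minus strand, 27 exons) had nearly the same annotated length, 4869 bases beside 4907. The L copy was 6.59-fold higher (log2 ratio 2.72, SE 0.36, adjusted p 0.000107, limma). For dhx36 the L copy made up 84.2%, 92.3% and 77.9% in IN, and 88.8%, 79.0% and 83.9% in NPC. It was 5.62-fold higher (log2 ratio 2.49, SE 0.48, adjusted p 0.00227, limma). Over coding sequence the L share still ran from 79.8% to 96.3% for dhx9 and from 64.3% to 99.4% for dhx36.

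ddx47, which acts early in ribosomal RNA processing, and ddx42, a partner of the SF3b splicing complex, also had more L than S. For ddx47 the copies (4L, 108064012 to 108079565 and 4S, 88721503 to 88733270, both minus strand) gave an L share of 63.2% to 100.0% over the libraries (log2 ratio 3.43, SE 1.09, adjusted p 0.0425, limma). For ddx42 (9_10L, 6183379 to 6199378 and 9_10S, 5650050 to 5668349, both minus strand) the L share was 90.8%, 79.1% and 83.8% in IN, and 89.9% and 95.3% in NPC libraries 1 and 2, while NPC library 3 went the other way with 257 L and 314 S reads (log2 ratio 2.40, SE 0.65, adjusted p 0.0193, limma). With either coding table neither pair passed. ddx47 also missed the threshold without IN library 2, IN library 3 or any 1 of the NPC libraries (adjusted p up to 0.216, limma), and ddx42 without IN library 1, IN library 3, NPC library 1 or NPC library 2 (adjusted p up to 0.104 over all alternatives). dhx32 was called as well (adjusted p 0.00146, limma), but dhx32.S (7S, 15406565 to 15407430, minus strand) is annotated as 1 exon of 866 bases and had 5 reads in all, from NPC library 3.

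ddx21 went the other way. Its S copy was 10.1-fold higher than the L copy (Scaffold124, 129581 to 146342, plus strand), with L shares of 6.94%, 12.7% and 13.05% in IN, and 4.88%, 3.35% and 23.3% in NPC (log2 ratio of L to S -3.33, SE 0.44, adjusted p 9.88e-05, limma). Its size depended on what was counted. Over coding sequence with STAR, ddx21.L had 730, 516 and 2159 reads in IN, against 338, 214 and 1674 in NPC, more than the 149, 235 and 387 in IN and the 74, 28 and 1236 in NPC over the whole mRNA. The coding L share was 22.1% to 47.8%, and the log2 ratio was -1.09 (SE 0.35, adjusted p 0.056, limma) with STAR coding counts and -1.42 (SE 0.37, adjusted p 0.0212, limma) with TopHat2 coding counts. ddx21.L overlaps an unnamed gene on the opposite strand over 5645 bases.

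**Figure D5:**
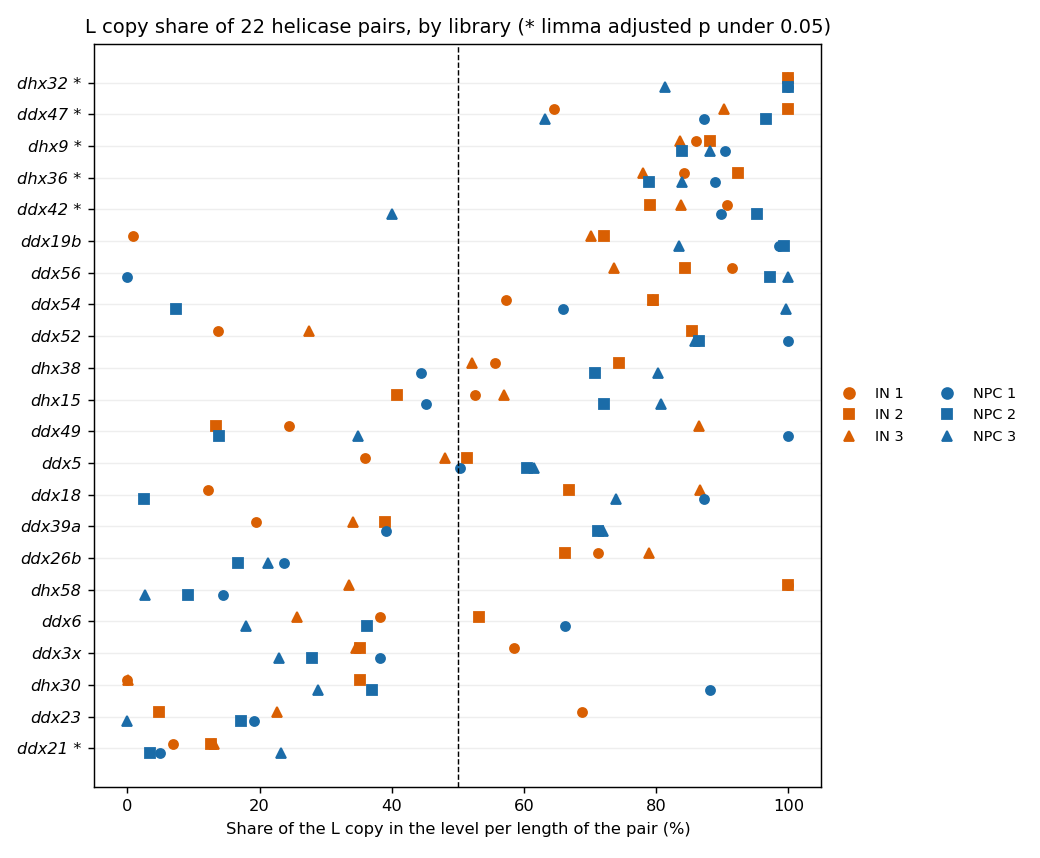
Share of the L copy in the level per length of each of the 22 helicase pairs (x axis, percent), with IN libraries (orange) above NPC libraries (blue) in each row and the dashed line at equal levels. dhx9 and dhx36 lie between 77.9% and 92.3% in all 6 libraries, ddx21 lies at 23.3% or below, and ddx26b shows 66.2% to 78.9% in IN and 16.7% to 23.8% in NPC.

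Between groups, 0 of the 22 pairs had a different L to S ratio at an adjusted p under 0.05 (limma, smallest adjusted p 0.997), as did 0% of all pairs, and 2 had an unadjusted p under 0.05, where 4.43% of all pairs did. The pairs were ddx19b (log2 difference of ratios, IN minus NPC, -6.16, SE 2.12, unadjusted p 0.0113) and ddx39a (-1.89, SE 0.85, unadjusted p 0.0444). For ddx39a the L share was 30.9% ± 10.1 in IN and 60.7% ± 18.8 in NPC (SD, n = 3 each), and the groups just failed to overlap, with 38.9% in the highest IN library and 39.1% in the lowest NPC library. Over coding sequence they overlapped, with 45.5% in the highest IN library and 45.0% in the lowest NPC library. For ddx26b it was 72.1% ± 6.41 in IN and 20.6% ± 3.60 in NPC without overlap (log2 difference 3.31, SE 1.84, unadjusted p 0.0937, limma). Over coding sequence the shares of ddx26b overlapped widely, at 49.5%, 23.0% and 83.7% in IN and 36.1%, 7.91% and 60.9% in NPC. Over whole mRNAs ddx5 stayed near even in both groups, at 45.2% ± 8.17 in IN and 57.4% ± 6.13 in NPC. Over coding sequence its L copy was the higher one in each library. The L share was then 58.3%, 69.8% and 55.0% in IN, and 58.4%, 69.9% and 68.0% in NPC.

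Helicase reads lay more often in coding sequence than reads over all genes, 64.2% beside 53.7% of mRNA reads with STAR. Coding reads made up at least 90% of mRNA reads in 15 copies and under 50% in 25. In ddx6.L coding reads were 25.2% of mRNA reads, with an exonic length of 7157 bases. In 5 copies at least 1 library had more coding than whole-mRNA reads, and all 5 were among the 15 copies whose span overlaps another annotated gene. The part of the overlaps in these counts was not tested.

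Variation between replicates was large. The median biological coefficient of variation of the tested helicases was 101%, beside 110% over all tested genes. At a mean of at least 50 CPM, it was 60.7% in 20 helicases and 67.3% over 4590 genes, and the highest library of a group was at the median 2.64-fold above the lowest for helicases and 2.74-fold for all such genes. In 15 of the 66 tested copies a single library held more than 50% of all reads. An example was ddx54.S, a ribosome biogenesis helicase, with 84, 89 and 125 reads in IN, against 10, 993 and 2 in NPC. Its counts are uncertain. The span overlaps cfap73.S over 2710 bases and rita1.S over 442 bases, both on the opposite strand. The part of these overlaps in its counts was not tested. Over coding sequence with STAR ddx54.S had 59, 84 and 121 reads in IN, against 143, 740 and 3 in NPC. In NPC libraries 1 and 3 these exceed its whole-mRNA reads.

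Other genes of the same processes were examined beside the family. Of 25 copies of other RNA helicases, such as the initiation factor eif4a1 and the spliceosomal snrnp200, 22 were tested, 18 were above 0 and 4 below, where 49.0% of all genes were above 0, and 0 passed (median log2 fold change 0.53, edgeR). At an unadjusted p under 0.05 there were 0, where 3.43% of all genes were. The sum of this list overlapped, at 1243 to 2360 CPM in IN and 1201 to 2152 CPM in NPC. upf1, the helicase of nonsense-mediated decay, was at 70.4 ± 7.44 CPM in IN and 46.9 ± 8.28 CPM in NPC for its L copy. Its S copy was at 112 ± 34.3 CPM in IN and 65.7 ± 21.0 CPM in NPC. The unadjusted p was 0.465 for L and 0.277 for S (edgeR). The lowest p of the list was that of skiv2l2.L (log2 fold change -2.06, unadjusted p 0.0874, edgeR). Of 41 tested helicase activators, among them the G-patch proteins, 18 were above 0 and 23 below, and 0 passed (median -0.033, 1 at an unadjusted p under 0.05). Of 31 tested copies of partner complexes, 16 were above 0 and 15 below, and 0 passed (median 0.073, 2 at an unadjusted p under 0.05, beside the same 3.43%). gemin4.L, which binds gemin3 in the SMN complex, had 814, 23 and 80 reads in IN, against 36, 5 and 15 in NPC (log2 fold change 3.83, unadjusted p 0.0358, edgeR), opposite in sign to ddx20.L.

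Tectum and midbrain markers summed to 390 to 676 CPM in IN and 387 to 768 CPM in NPC. Marker sums of other cell types were lower, though some copies had many reads in 1 library. Examples were c1qa.L, with 555 reads in IN library 1, and hbg2.L, with 631 reads in NPC library 2. Microglia and leukocyte markers (3 of 9 copies tested) summed to 20.7 to 98.2 CPM in IN and 8.75 to 23.8 CPM in NPC. Endothelial markers (4 of 11) summed to 21.9 to 62.6 CPM in IN and 47.6 to 128 CPM in NPC. Oligodendrocyte markers (6 of 11) summed to 85.3 to 140 CPM in IN and 134 to 172 CPM in NPC. Erythroid markers (2 of 9, with 4 copies at 0) summed to 0.721 to 8.62 CPM in IN and 1.77 to 145 CPM in NPC. Skin markers (3 of 9, with 3 at 0) summed to 10.6 to 98.1 CPM in IN and 15.9 to 59.6 CPM in NPC, and skeletal muscle markers (1 of 10, with 3 at 0) to 10.2 to 17.1 CPM in IN and 3.80 to 22.3 CPM in NPC. No marker copy passed edgeR's test, and their part in the helicase values was not tested.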

How the data were processed

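The authors deposited 3 tables of raw read counts per gene or transcript, per the sheet names made from STAR alignments over mRNA, STAR alignments over coding sequence and TopHat2 alignments over coding sequence. The submitters' processing notes also list FastQC, Trimmomatic, HTSeq and DESeq2, without saying what each did. Neither the strand setting nor the handling of multiply matching reads is given in the sources used here. Reads shared by near-identical L and S copies, or by genes that overlap, may be lost or misassigned. Count columns were named by letter and number; D was read as dark (NPC) and L as light (IN). Symbols, positions (1-based) and exonic lengths came from the deposited annotation, build 9.1 per the file headers. Sequences are not used here.

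STAR mRNA counts were filtered (filterByExpr), scaled by TMM and fitted with edgeR 4.0.16 in R 4.3.3 over all genes (quasi-likelihood, robust, 2-sided, Benjamini-Hochberg, threshold 0.05). Standard errors and 95% intervals were derived from the F statistic. TPM was calculated from counts and exonic length. L to S ratios (pseudocount 0.5 per kb, pairs of at least 10 CPM) were fitted with limma 3.58.1, its variance trend following pair abundance. Both fits were tested on simulated counts. Exact permutation tests were 2-sided. The edgeR intervals include the estimated spread between libraries.

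Alternatives were other scalings, filters, pseudocount and length settings, DESeq2 1.42.0, limma-voom, both coding tables, summed copies, a replicate block and each library left out. Named helicases were those at an unadjusted p under 0.05, the 5 of lowest p per direction, the 10 of highest level, the lowest p of each role group, the called pairs, copies near 0 in 1 group, and their other copies; any other helicase given with values was chosen after they were seen. Role groups follow textbook functions; the placement of dhx32 among ribosome biogenesis helicases is uncertain. Members, lists and role groups were chosen with earlier results of these data known.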

Additional observations from a re-analysis of the deposited data

How the results depend on the processing

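No helicase passed the adjusted threshold of 0.05 under any alternative run. An adjusted p under 0.1 was tried as a threshold in the main edgeR fit only, where none passed. DESeq2's smallest adjusted p of a helicase, 0.0573, lay under 0.1. Copies at an unadjusted p under 0.05 numbered 3, and 5 without the filter on low counts, 1 with TopHat2 coding counts, 5 with a replicate block, 6 with DESeq2 and 5 with limma-voom. They numbered 2 to 5 with a library left out, the highest without NPC library 3. Over all genes the share at this p was 3.43%, and 6.45% without the filter, 3.41% with TopHat2 coding counts and 3.37% with the block. It was 6.68% with DESeq2 and 3.42% with limma-voom. With a library left out this share over all genes ran from 3.55% to 6.36%, and was 5.08% without NPC library 3. ddx59.L was not among them without IN library 2 or 3, nor dhx58.S with TopHat2 coding counts. dhx32.L was not among them with either coding table, the block or limma-voom, or without IN library 3 or any 1 of the NPC libraries. The median log2 fold change of the helicases ran from -0.22 without IN library 3 to 0.46 without NPC library 3, and the ratio of summed CPM from 0.871 to 1.24.

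Helicase pairs with unequal copies numbered 6, and 3 with STAR coding counts, 4 with TopHat2 coding counts, 8 without length correction, 7 with the replicate block and 4 to 7 with a library left out. Over all pairs the share called was 18.4%, and 12.99% with STAR coding counts, 12.6% with TopHat2 coding counts, 20.2% without length correction and 19.4% with the block. dhx9 and dhx36 passed in all 12 alternatives. No helicase pair differed in ratio between groups at an adjusted p under 0.05 under any alternative where this was counted. Without length correction it was not counted. In that setting 4 helicase pairs had an unadjusted p under 0.05 (limma), beside 2 in the main fit, and the share over all pairs was not calculated.

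Same-numbered libraries deviated together with correlations of 0.115, 0.0467 and 0.0813, each above those with other numbers. These are correlations of deviations from group means, so they depend on each other. Taken alone they are at most a weak hint. The share of reads in coding sequence over all genes also went by library number. It was 45.9% in IN and 45.1% in NPC for library 1, 54.0% and 55.1% for library 2, and 60.9% and 61.0% for library 3. The labels do not explain this, and its cause was not tested. The numbers were not taken as pairs in the main fit. A replicate block changed no adjusted call between groups, but the main fit had none to lose, so this says little. With the block, 5 helicases had an unadjusted p under 0.05 (edgeR), beside 3 in the main fit. Their list changed too, with ddx19b.L, ddx56.L and dhx57.L entering and dhx32.L leaving. The median log2 fold change of the helicases moved from -0.0058 to 0.15.

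Of 469 fold changes of named helicases under alternatives, 442 kept their sign and 27 turned. With the replicate block and with limma-voom, in this order, they turned to 0.62 and 0.61 for ddx21.L, 0.046 and 0.052 for ddx21.S, 0.057 and 0.054 for ddx42.L, and 0.12 and 0.13 for dhx9.L. With coding counts ddx21.L came to 0.42 from STAR and 0.40 from TopHat2, and dhx9.L came to 0.058 with upper-quartile scaling. With a library left out, values ran from -0.0054 to 0.41 for ddx17.L, -1.65 to 2.21 for ddx21.L, -0.67 to 0.72 for ddx21.S, -0.65 to 0.048 for ddx39b.L, -0.66 to 0.29 for ddx42.L, -0.90 to 0.57 for ddx42.S, -1.83 to 0.67 for ddx47.S, -0.26 to 0.14 for ddx5.L, -1.57 to 4.96 for dhx30.S, -2.16 to 0.073 for dhx35.S, -0.32 to 0.63 for dhx9.L and -0.20 to 0.76 for dhx9.S. The cause was not tested. Depth limits copies with few reads, and the spread between libraries limits all of them.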
